A study of Rattus norvegicus with 38 samples.

Results

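Among the protein-coding genes of rat mitochondrial DNA, 6 that encode subunits of the last steps of respiration were followed through 5 regions of the rat heart, in failing and in healthy animals. They are Co1 (ENSRNOG00000034234), Co2 (ENSRNOG00000030371) and Co3 (ENSRNOG00000030700) of cytochrome c oxidase, Cyb (ENSRNOG00000031766) of the cytochrome bc1 complex, and Atp6 (ENSRNOG00000031979) and Atp8 (ENSRNOG00000033299) of ATP synthase. They were chosen by their gene identifiers and are 6 of the 24057 genes in the deposited gene tables, and all 6 were found in both tables and passed the filter on low counts in every comparison.

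The bulk RNA libraries came from male Sprague-Dawley rats aged 10 weeks. Failing hearts are those of the disease model, in which pups had the ascending aorta constricted at 1 week of age and developed left ventricular hypertrophy. Healthy hearts had the same strain, sex and age. The protocol text on the operation stands on every library, and the sources used here do not give the treatment of the healthy rats. There were 4 failing libraries from each of the inferior sinoatrial node, superior sinoatrial node, right atrium, left atrium and left ventricle. Healthy hearts gave 4 libraries of each region except the left ventricle, which had 2, so that 38 libraries stood in 10 groups. Totals of estimated counts were 17406473 to 27355777 per library. Libraries are named here by their region and the 4-digit code in their titles, which recurs across regions, with F put before the codes of failing and H before those of healthy hearts. The codes F0409, F0506, F0507 and F0508 belong to failing hearts and H0920, H0921, H1001 and H1002 to healthy hearts, so any batch tied to a code and the health state cannot be told apart. Whether a code is 1 animal is not stated, and p-values measure the spread between these libraries. In tissue pieces, fewer cells of a type and less RNA per cell cannot be told apart. The labelled regions were not checked against marker genes, because the files and the reference tables did not pair the identifiers of such genes with names.

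Mitochondrial DNA is transcribed as long precursors that are cut into separate messages, and its few proteins join many more that are encoded in the nucleus. Co1, Co2 and Co3 form the catalytic core of cytochrome c oxidase, which passes electrons to oxygen, and Cyb is the cytochrome b of the preceding complex, which passes them to cytochrome c. Atp6 and Atp8 are membrane subunits of ATP synthase: Atp6 lines the path of the protons, and Atp8 is a very short protein that helps hold the complex together. Heart muscle is rich in mitochondria, and these messages are among the most abundant in it. In mammals Atp8 and Atp6 lie on 1 shared message with overlapping reading frames, so reads in the overlap cannot be given to 1 of them with certainty.

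The 6 genes held 8.59% to 48.3% of the estimated counts of a library. Co1 was the most abundant gene of all in 37 of 38 libraries and held a mean of 8.93% of the counts. By mean share, Co3 ranked 2 with 2.69%, Cyb 4 with 2.52%, Atp6 5 with 2.13% and Co2 6 with 1.82%. Atp8 ranked 221 with 0.0422%. A share of counts grows with the length of a message, so levels between genes were compared as TPM, a transcript level that is corrected for length. Mean TPM over the 38 libraries was 71006 for Co1, 52477 for Co3, 52201 for Atp6, 43809 for Co2, 29534 for Cyb and 16284 for Atp8. The order of TPM was Co1, Co3, Atp6, Co2, Cyb, Atp8 in 20 libraries, and in 14 more it differed only in that Atp6 stood before Co3. Mean TPM of Co3 and Atp6 differed by less than the spread between libraries.

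**Figure D1:**
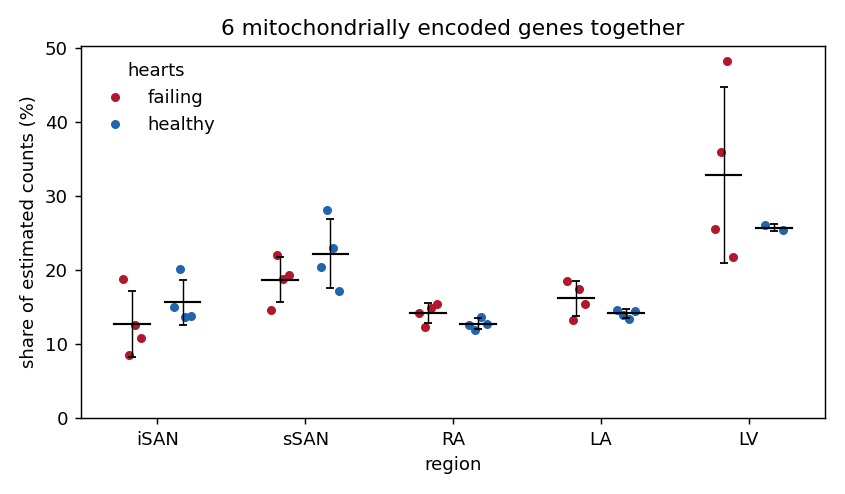
Share of each library's estimated counts held by the 6 genes together, in percent, for failing (left of each pair) and healthy hearts in the inferior node (iSAN), superior node (sSAN), right atrium (RA), left atrium (LA) and left ventricle (LV). Points are libraries, bars the mean and SD; the failing left ventricles spread from 21.8% to 48.3%, and the failing and healthy groups overlap in each region.

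The left ventricle held the highest share. In failing left ventricles the 6 genes made up 25.5% of the counts in library F0409, 35.9% in F0506, 48.3% in F0507 and 21.8% in F0508, against 26.1% in H1001 and 25.4% in H1002 of healthy left ventricles. Failing left ventricles averaged 32.9% ± 11.9 (SD, n = 4) and healthy ones 25.7% ± 0.479 (SD, n = 2). The healthy pair lay within the range of the failing libraries, and F0507 stood highest of all 38.

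The superior node came next. Its failing libraries had shares of 14.6% in F0409, 22.0% in F0506, 18.8% in F0507 and 19.4% in F0508, and its healthy libraries 20.4% in H0920, 28.2% in H0921, 23.0% in H1001 and 17.2% in H1002. The means were 18.7% ± 3.07 in failing and 22.2% ± 4.63 in healthy superior nodes (SD, n = 4 each), with overlapping groups. Failing inferior nodes had 18.9% in F0409, 8.59% in F0506, 12.5% in F0507 and 10.8% in F0508, against 15.02%, 20.2%, 13.7% and 13.8% in H0920, H0921, H1001 and H1002 of healthy inferior nodes. Library F0409 was the only failing inferior node above the lowest healthy one, and the means were 12.7% ± 4.42 in failing and 15.7% ± 3.06 in healthy inferior nodes (SD, n = 4 each).

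The atrial shares spread less than those of the nodes. Failing right atria had shares of 14.2% in F0409, 12.3% in F0506, 14.8% in F0507 and 15.5% in F0508, and healthy right atria 12.6%, 11.9%, 13.7% and 12.7% in H0920, H0921, H1001 and H1002. Failing left atria had 18.5%, 13.3%, 17.4% and 15.4% in F0409, F0506, F0507 and F0508, against 14.7%, 14.0%, 13.4% and 14.5% in H0920, H0921, H1001 and H1002 of healthy left atria. In both atria, 3 of the 4 failing libraries lay above all 4 healthy ones and F0506 lay among or below them. The means were 14.2% ± 1.39 in failing and 12.8% ± 0.741 in healthy right atria, and 16.2% ± 2.31 in failing and 14.1% ± 0.568 in healthy left atria (SD, n = 4 each). On the TPM scale the atrial differences had the other sign: the summed share of TPM was 19.7% ± 1.39 in failing and 21.9% ± 0.900 in healthy right atria, and 22.8% ± 2.52 in failing and 23.9% ± 1.15 in healthy left atria (SD, n = 4 each). The direction of the atrial share is therefore not given as higher or lower.

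Ordered by mean share of counts, the groups ran from failing inferior node, healthy right atrium, healthy left atrium, failing right atrium, healthy inferior node, failing left atrium, failing superior node, healthy superior node and healthy left ventricle to failing left ventricle. Each neighbour in this order differed from the next by less than the larger SD of the pair, except the healthy left atrium and the healthy right atrium. Code F0506 had both the lowest inferior node (8.59%) and the second highest left ventricle (35.9%), so a high share in 1 region did not go with a high share in all regions of a code.

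Across libraries 5 of the 6 genes kept close proportions to the others, and Atp8 varied more. The SD of log2 CPM over the 38 libraries was 0.72 to 0.92 for the single genes. The SD of a gene's log2 difference from the mean of the other 5 was 0.12 for Co1, 0.14 for Cyb, 0.18 for Atp6, 0.20 for Co2, 0.29 for Co3 and 0.72 for Atp8. Among the other 4467 genes of sufficient abundance, the pattern most like the mean of the 6 was that of ENSRNOG00000030644, with an SD of the difference of 0.17, and then ENSRNOG00000029042, with 0.25; the median over all ranked genes was 0.84. These are descriptions over 38 libraries that share regions and codes.

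**Figure D2:**
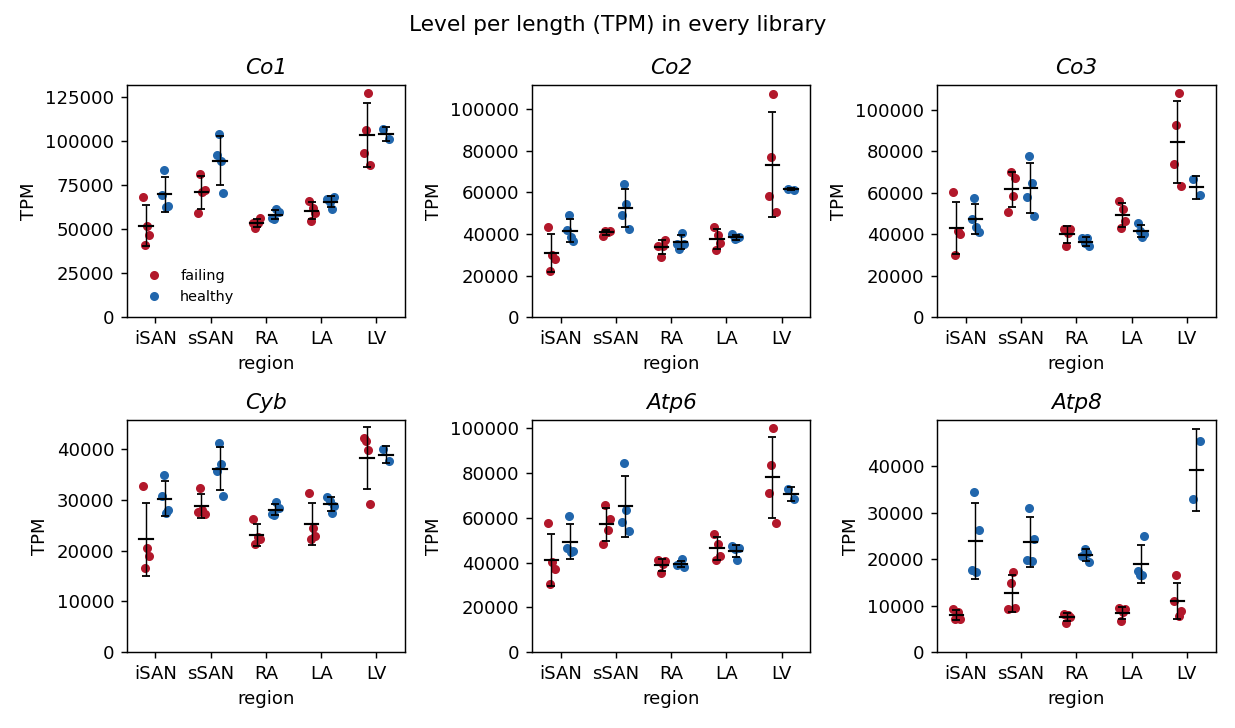
TPM of each of the 6 genes in every library, with the mean and SD per group, failing hearts left of healthy hearts in each region. Co1, Co2, Co3, Cyb and Atp6 are highest in the left ventricle by mean in both health states, and the TPM of Atp8 in every failing library lies below that in every healthy library of the same region.

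Atp8 was the member that passed a test between failing and healthy hearts. Counts of calls below come from edgeR's quasi-likelihood test on all genes of a comparison, with Benjamini-Hochberg adjusted p under 0.05. Atp8 was lower in failing hearts in the inferior node, the right atrium and the left atrium by this test, and the 5 other genes passed it in 0 of 5 regions.

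In the right atrium Atp8 had 8290, 6259, 8042 and 7515 TPM in failing libraries F0409, F0506, F0507 and F0508, against 20631, 22241, 21385 and 19291 TPM in healthy libraries H0920, H0921, H1001 and H1002. Every failing right atrium was below every healthy one, with a wide gap. The log2 change of its counts was -1.19 (SE 0.14, adjusted p = 0.00034). Left atria had 9433, 6613, 8625 and 9355 TPM in failing libraries F0409, F0506, F0507 and F0508 and 17471, 16499, 16587 and 25047 TPM in healthy libraries H0920, H0921, H1001 and H1002, again without overlap. The log2 change there was -0.93 (SE 0.22, adjusted p = 0.0067). Of all genes tested, 47.5% were called for right atria and 48.2% for left atria, against 1 of the 6 in each, so a call alone does not set Atp8 apart in the atria.

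In the inferior node Atp8 had 9227, 7038, 8640 and 7112 TPM in failing libraries F0409, F0506, F0507 and F0508, and 17660, 34407, 17277 and 26219 TPM in healthy libraries H0920, H0921, H1001 and H1002. The groups did not overlap, and the healthy libraries spread more widely than the failing ones. The log2 change was -1.69 (SE 0.34, adjusted p = 0.0056); 38.5% of genes were called in this region. Failing superior nodes had 9219, 14824, 17170 and 9544 TPM in F0409, F0506, F0507 and F0508, and healthy superior nodes 19851, 31089, 19618 and 24238 TPM in H0920, H0921, H1001 and H1002. All 4 failing libraries were below the 4 healthy ones, yet the log2 change of -1.08 (SE 0.33) had an adjusted p of 0.056 and did not pass, with 13.5% of genes called. It passed with DESeq2 (adjusted p = 0.0062), which called 22.9% of genes, and in 1 fit of all 38 libraries (adjusted p = 0.027), which called 17.1%. With limma on log2(TPM + 1) the adjusted p was 0.12.

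Failing left ventricles had 11109, 16500, 7739 and 8883 TPM of Atp8 in F0409, F0506, F0507 and F0508, against 32837 and 45294 TPM in H1001 and H1002 of healthy left ventricles. Both healthy libraries were above all failing ones. The log2 change was -1.29 (SE 0.52), with an unadjusted p of 0.040 and an adjusted p of 0.43, and DESeq2 and limma called 0 members. With 2 healthy libraries, 0.0% of genes were called by edgeR in the left ventricle, 1510 of 13670 had an unadjusted p under 0.05, DESeq2 called 356 and limma 2. In 1 fit of all 38 libraries, where the 2 healthy libraries borrow the spread of the other regions, Atp8 passed (log2 change -1.28, adjusted p = 0.023), as did 19.1% of all genes.

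Differences between regions in this effect were tested as interactions, and 0 of the 6 genes passed in any. For Atp8 the effect of failure in the superior node minus that in the inferior node was 0.59 (SE 0.49) on the log2 scale, in the left minus the right atrium 0.25 (SE 0.27), and in the inferior node minus the left atrium -0.79 (SE 0.42). In the superior node minus the right atrium it was 0.12 (SE 0.37), and in the left ventricle minus the left atrium -0.33 (SE 0.55); these 2 tests were added after the values had been seen. DESeq2 and limma also called 0 members in each. The shares of all genes called in these 5 tests were 0.0%, 0.171%, 0.932%, 0.0% and 0.114%, in the same order. In the superior node minus the inferior node and minus the right atrium, where edgeR called no gene, 598 and 1666 genes had an unadjusted p under 0.05, DESeq2 called 0 and 135 and limma 0 and 8. For the 5 other genes the interaction of the superior and the inferior node was -0.03 for Co1, -0.10 for Co2, -0.03 for Co3, -0.03 for Cyb and -0.08 for Atp6. That of the left and right atrium was -0.06 for Co1, 0.01 for Co2, 0.06 for Co3, 0.02 for Cyb and -0.02 for Atp6. Larger values, with errors to match, stood in the other tests. The inferior node minus the left atrium gave -0.63 for Co1, -0.71 for Co2, -0.71 for Co3, -0.54 for Cyb and -0.61 for Atp6. The superior node minus the right atrium gave -0.65 for Co1, -0.74 for Co2, -0.62 for Co3, -0.49 for Cyb and -0.64 for Atp6, and here Co2 alone among the members of these 5 tests had an unadjusted p under 0.05 (SE 0.33, adjusted p = 0.41). The left ventricle minus the left atrium gave 0.62 for Co1, 0.89 for Co2, 0.72 for Co3, 0.62 for Cyb and 0.65 for Atp6.

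**Figure D3:**
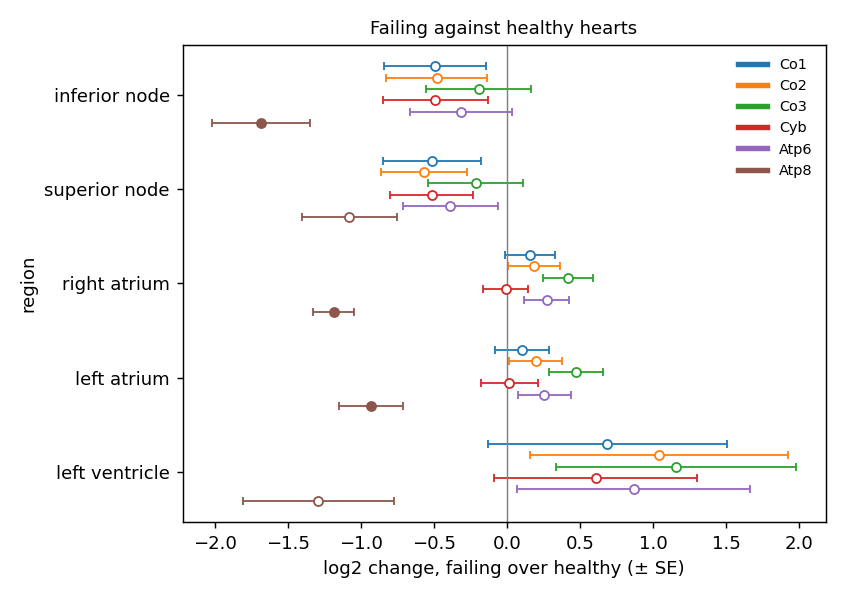
Log2 change of counts in failing over healthy hearts for each gene, with its SE, in the 5 regions; filled points have an adjusted p under 0.05 (edgeR). Atp8 is the left-most point in every region and is filled in the inferior node, right atrium and left atrium, and the other genes lie below 0 in both nodes and above it in the left ventricle.

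None of the 5 other genes passed the test between failing and healthy hearts of a region. In the inferior node their log2 changes were -0.49 for Co1 (SE 0.35), -0.48 for Co2 (SE 0.35), -0.20 for Co3 (SE 0.36), -0.49 for Cyb (SE 0.36) and -0.32 for Atp6 (SE 0.35). Single libraries moved these values both ways. Without failing library F0409, 4 of the 6 genes passed, with 5850 of 14547 genes called: Co1 at -0.82, Co2 at -0.87, Cyb at -0.93 and Atp8 at -1.91. Co3 then had -0.58 (adjusted p = 0.12) and Atp6 -0.69 (adjusted p = 0.062). Without failing library F0506, Co1 was at -0.32, Co2 at -0.28, Co3 at 0.01, Cyb at -0.30 and Atp6 at -0.13. Without healthy library H0921, Co1 was at -0.30, Co2 at -0.30, Co3 at 0.01, Cyb at -0.33 and Atp6 at -0.10. Atp8 was the 1 gene of the 6 that passed in both of these fits, which called 5150 of 14528 and 5078 of 14588 genes.

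In the superior node the log2 changes were -0.51 for Co1 (SE 0.34, adjusted p = 0.32), -0.57 for Co2 (SE 0.29, adjusted p = 0.21) and -0.22 for Co3 (SE 0.33, adjusted p = 0.68). Cyb had -0.52 (SE 0.28, adjusted p = 0.24) and Atp6 -0.39 (SE 0.32, adjusted p = 0.43). Without healthy library H0921 they were nearer to 0, at -0.30 for Co1, -0.33 for Co2, 0.04 for Co3, -0.33 for Cyb and -0.10 for Atp6.

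In the atria the 5 other genes lay between -0.01 and 0.42 on the right side and between 0.02 and 0.47 on the left. Co3 had the largest values: it held 2.11% ± 0.284 of counts in failing and 1.61% ± 0.108 in healthy right atria, and 2.58% ± 0.414 in failing and 1.83% ± 0.117 in healthy left atria (SD, n = 4 each). Its log2 change was 0.42 in the right atrium (SE 0.17, adjusted p = 0.070) and 0.47 in the left atrium (SE 0.19, adjusted p = 0.059), neither past the threshold. It passed in both with DESeq2 (adjusted p = 0.012 and 0.0052), which called 50.3% and 51.9% of genes. It also passed when failing library F0506 was left out (0.53 and 0.60), where 6946 of 14168 and 6064 of 14342 genes were called. Atp6 had 0.27 in right atria (SE 0.16, adjusted p = 0.18) and 0.26 in left atria (SE 0.18, adjusted p = 0.27). Co2 had 0.18 in right atria (SE 0.18, adjusted p = 0.42) and 0.19 in left atria (SE 0.18, adjusted p = 0.40), and Co1 0.16 (SE 0.17, adjusted p = 0.47) and 0.10 (SE 0.18, adjusted p = 0.67). Cyb, at the other end, had -0.01 in right atria (SE 0.15, adjusted p = 0.96) and 0.02 in left atria (SE 0.19, adjusted p = 0.95). On the log2(TPM + 1) scale the change in right atria was -0.12 for Co1, -0.10 for Co2, 0.13 for Co3 (adjusted p = 0.51), -0.29 for Cyb and -0.01 for Atp6. In left atria it was -0.12 for Co1, -0.04 for Co2, 0.24 for Co3 (adjusted p = 0.38), -0.22 for Cyb and 0.03 for Atp6. Of the 5, limma called 0 in either atrium, where it called 48.2% and 45.9% of all genes.

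In the left ventricle the 5 had positive values: 0.69 for Co1 (SE 0.82), 1.04 for Co2 (SE 0.88), 1.16 for Co3 (SE 0.82), 0.61 for Cyb (SE 0.70) and 0.87 for Atp6 (SE 0.80), with adjusted p from 0.56 to 0.71. Without library F0507, the one with 48.3% of counts in these genes, they were 0.06 for Co1, 0.24 for Co2, 0.51 for Co3, 0.15 for Cyb and 0.21 for Atp6. Without failing library F0508, at the other end, Co1 had 0.97 and Co3 1.46.

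**Figure D4:**
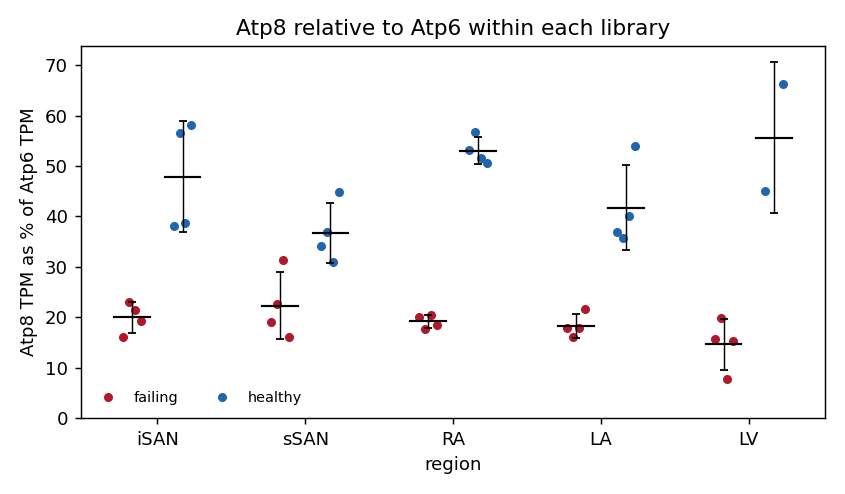
TPM of Atp8 as a percentage of the TPM of Atp6 in the same library, for failing (left) and healthy hearts in 5 regions, with the mean and SD. The 20 failing libraries lie between 7.73% and 31.4% and the 18 healthy ones between 31.0% and 66.3%.

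Atp8 and Atp6 share a message, and their ratio within a library does not depend on how libraries are scaled to each other. This measure was added after the values had been seen. TPM of Atp8 was 7.73% to 31.4% of that of Atp6 in the 20 failing libraries and 31.0% to 66.3% in the 18 healthy ones. It averaged 20.0% ± 3.05 in failing and 47.9% ± 11.0 in healthy inferior nodes, and 22.3% ± 6.65 in failing and 36.7% ± 5.90 in healthy superior nodes (SD, n = 4 each). In right atria it was 19.2% ± 1.30 in failing and 53.1% ± 2.66 in healthy hearts, and in left atria 18.4% ± 2.38 in failing and 41.7% ± 8.42 in healthy hearts (SD, n = 4 each). Failing left ventricles had 14.6% ± 5.04 (SD, n = 4) and healthy ones 55.7% ± 15.02 (SD, n = 2).

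The log2 ratio was lower in failing hearts by an exact two-sided permutation test in the inferior node (difference -1.24), the right atrium (-1.47) and the left atrium (-1.17), each with p = 0.0286, the smallest that 4 against 4 allows, and 0.0477 after adjustment over the 5 regions. In the superior node the difference was -0.75 (exact p = 0.0571, adjusted 0.0667), where failing library F0507 at 31.4% overlapped healthy library H1001 at 31.0%. The left ventricle had -1.98, with an exact p of 0.0667, the smallest that 4 against 2 allows. Taken against Co1 in place of Atp6, the 5 differences lay between -1.84 and -0.61. Atp8 was picked for this test after its values had been seen, and the adjustment over the 5 regions does not cover that choice. The ratios of the other genes to Atp6 were not tested, so these p-values do not set Atp8 apart from them.

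The other genes shifted less against Atp6 than Atp8 did. Their log2 TPM ratio to Atp6 differed between failing and healthy hearts by -0.27 to 0.29. Co3 was the gene with a higher ratio in failing hearts in all 5 regions, by 0.11 in the inferior node to 0.29 in the left ventricle. Cyb had a lower ratio in failing hearts in all 5, by -0.27 in the right atrium to -0.15 in the superior node, and Co1 by -0.16 to -0.11. In the left atrium the log2 ratio of Co3 to Atp6 was 0.09 ± 0.02 in failing and -0.12 ± 0.07 in healthy hearts (SD, n = 4 each). In the right atrium that of Cyb was -0.76 ± 0.10 in failing and -0.49 ± 0.05 in healthy hearts (SD, n = 4 each). Both shifts exceeded the SD of either group, as did most shifts of the other genes, among them those of Co3 in all 5 regions. Others did not, such as that of Co2 in the left ventricle (0.08), where the failing SD was 0.16. These ratios were not tested.

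Length bears on the Atp8 values. From the ratio of counts to TPM, the length term of Atp8 was 2.13% of that of Co1, and 19 of the 12528 genes above 1 TPM had a shorter one. Small errors in the effective length of so short an annotated gene change its TPM strongly, and the sources used here give no fragment lengths. The deposited counts follow TPM times a gene term and a library term, so the tests of Atp8 on counts carry the same limit. Atp8 and Atp6 were counted as separate genes though they share a message. How the reads of that message were divided between them was not tested. Another 67 genes had a length term under 3% of that of Co1. Their median log2(TPM + 1) change in failing over healthy hearts was 0.23 and 0.25 in the inferior and superior node, -0.15 and 0.05 in right and left atria and -0.15 in left ventricles. The same change of Atp8 was -1.53, -0.93, -1.48, -1.14 and -1.86 in that order of regions. Medians over all genes above 1 TPM were 0.10, 0.13, -0.22, -0.18 and -0.29. Of these 67 genes, 0, 4, 4, 7 and 5 had a change below that of Atp8. The log2(TPM + 1) scale understates changes of low genes, and Atp8 is abundant, so these counts cannot decide the part of length. The CPM of Co1 divided by its TPM also moved with health state in the atria, at 1.22 to 1.36 in failing and 1.06 to 1.11 in healthy right atria and at 1.195 to 1.36 in failing and 1.07 to 1.10 in healthy left atria. This factor is the library term of the counts, which all genes share, so it cancels in the ratio of Atp8 to Atp6. The part of length in the Atp8 result was not tested.

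Between regions, the left ventricle exceeded the left atrium in all 6 genes in healthy hearts. Co1 made up 13.5% and 13.3% of counts in healthy left ventricles H1001 and H1002, against 7.28%, 7.04%, 6.74% and 7.50% in healthy left atria H0920, H0921, H1001 and H1002. The ventricles were far above the atria, with little spread. The log2 difference was 1.43 for Co1 (SE 0.11, adjusted p = 2.7e-06), 1.44 for Co2, 1.36 for Co3, 1.18 for Cyb, 1.41 for Atp6 and 1.82 for Atp8 (SE 0.24, adjusted p = 0.0007). All 6 passed, as did 43.5% of all genes tested, and all 6 passed when any 1 library was left out. On log2(TPM + 1) limma called 5, with Cyb at 0.41 (adjusted p = 0.057), and 75.6% of all genes. Sizes depend on the scaling: by library totals alone Co1 differed by 0.91, while the median of all genes was -0.55.

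In failing hearts Co1 held 12.2%, 17.002%, 23.1% and 11.3% of counts in left ventricles F0409, F0506, F0507 and F0508, against 8.66%, 6.55%, 8.38% and 7.62% in left atria of the same codes. Every ventricle was above every atrium in Co1. Atp8 overlapped on the TPM scale, with 11109, 16500, 7739 and 8883 TPM in these ventricles and 9433, 6613, 8625 and 9355 TPM in these atria. The log2 differences were 2.01 for Co1 (SE 0.59), 2.29 for Co2, 2.04 for Co3, 1.76 for Cyb, 2.02 for Atp6 and 1.45 for Atp8 (SE 0.41), larger than in healthy hearts for 5 genes but with wide errors. Their adjusted p lay between 0.054 and 0.060, so 0 of 6 passed by edgeR, with 10.8% of all genes called. All 6 had an unadjusted p under 0.05 and passed with DESeq2, which called 19.3% of genes, and in 1 fit of all 38 libraries, which called 33.6%, while limma on log2(TPM + 1) called 0. All 6 also passed without left ventricle F0508, where 2107 of 14052 genes were called. Without left ventricle F0507 the differences were 1.36 for Co1, 1.45 for Co2, 1.37 for Co3, 1.29 for Cyb, 1.34 for Atp6 and 1.28 for Atp8, with adjusted p from 0.057 to 0.078. Over the leave-outs other than F0508, adjusted p ran up to 0.17, and 0 of 6 passed in each. Sizes depend on the scaling here too: the median of all genes was -0.70 by library totals alone and on log2(TPM + 1). The difference between the health states in this contrast was not significant for any of the 6, as given above.

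**Figure D5:**
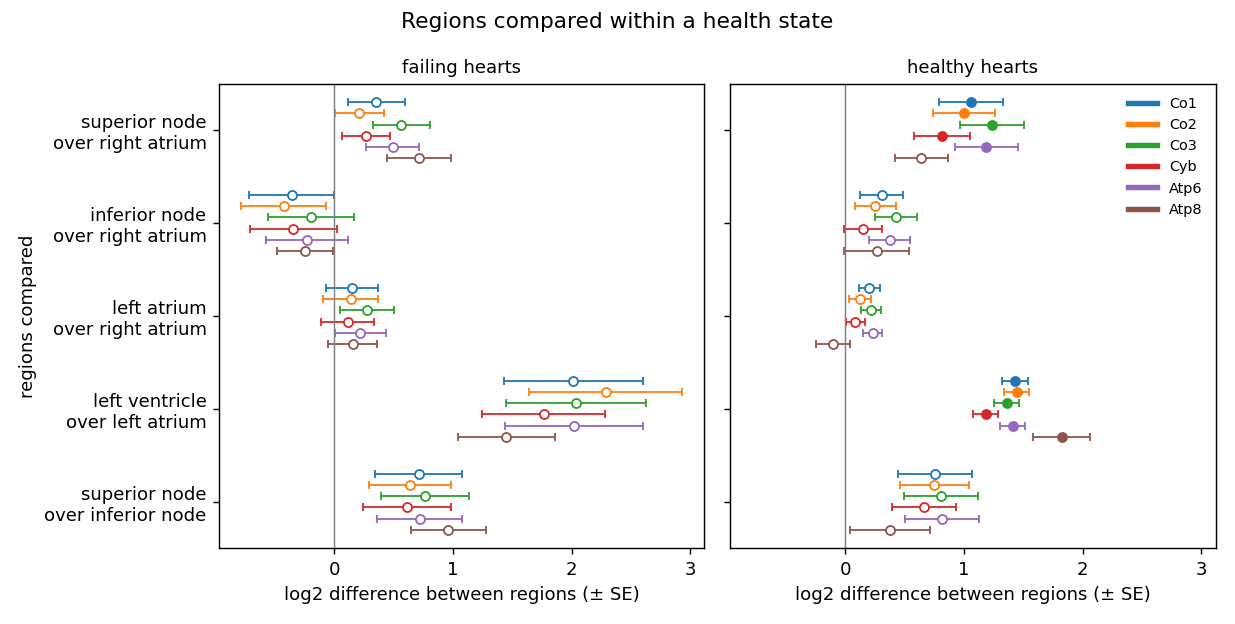
Log2 difference in counts between regions with its SE, in failing hearts (left panel) and healthy hearts (right panel); filled points have an adjusted p under 0.05 (edgeR). Filled points are in healthy hearts only: all 6 genes in left ventricle over left atrium and 5 in superior node over right atrium.

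The superior node exceeded the right atrium in healthy hearts. Co1 held 10.7%, 13.8%, 11.4% and 8.50% of counts in healthy superior nodes H0920, H0921, H1001 and H1002, against 6.20%, 5.90%, 6.77% and 6.49% in healthy right atria of these codes. The groups did not overlap. The log2 difference was 1.06 for Co1 (SE 0.27, adjusted p = 0.022), 1.00 for Co2, 1.24 for Co3, 0.81 for Cyb and 1.19 for Atp6, all past the threshold, and 0.64 for Atp8 (adjusted p = 0.063). Of all genes, 23.2% were called. The call rests on the model: with the code as a replicate block Co2, Co3 and Atp6 passed, with 24.6% of genes called, and 1 fit of all 38 libraries called Co1, Co3 and Atp6 and 15.8% of genes. On log2(TPM + 1) limma called 0 of 6 and 40.2% of all genes, with values from 0.16 for Atp8 to 0.75 for Co3 beside a median of -0.31 over all genes. Leaving out right atrium H0920, H0921 or H1002 left Co3 and Atp6 past the threshold, leaving out right atrium H1001 left Co2, Co3 and Atp6, with 1937 to 2160 genes called in these 4 fits, and 6 passed without superior node H0921, with 2870 of 14261 genes called.

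In failing hearts Co1 held 6.78%, 10.7%, 9.20% and 9.28% of counts in superior nodes F0409, F0506, F0507 and F0508, against 6.71%, 6.23%, 7.23% and 7.65% in right atria of the same codes. The groups overlapped through superior node F0409. The log2 differences were 0.35 for Co1, 0.21 for Co2, 0.57 for Co3, 0.27 for Cyb, 0.49 for Atp6 and 0.71 for Atp8, with adjusted p from 0.14 to 0.60. None passed by edgeR, with 8.28% of all genes called. Of the 6 genes, 2 had an unadjusted p under 0.05, DESeq2 called 1 (Co3, adjusted p = 0.039), with 15.2% of genes, and limma 0. That healthy and failing hearts differ in this contrast was not shown for any member by the interaction given above.

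For the inferior node over the right atrium no member passed. Log2 differences in failing hearts were -0.36 for Co1, -0.43 for Co2, -0.20 for Co3, -0.34 for Cyb, -0.23 for Atp6 and -0.25 for Atp8, with 19.0% of all genes called. In healthy hearts they were 0.31 for Co1, 0.25 for Co2, 0.43 for Co3, 0.15 for Cyb, 0.37 for Atp6 and 0.26 for Atp8, with 17.6% called. By edgeR 0 of 6 genes passed in both; 0 in failing and 1 in healthy hearts had an unadjusted p under 0.05, DESeq2 called 0 and 1, the 1 beside 22.8% of genes, and limma called 0 in each. Without failing inferior node F0409, Cyb passed at -0.79 (adjusted p = 0.039), with 3519 of 14382 genes called, and Co1 had -0.69 and Atp6 -0.61. Without failing inferior node F0506, Cyb had -0.14, Co1 -0.18 and Atp6 -0.02.

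Differences between the left and right atrium were small. Log2 differences, left over right, were 0.15 for Co1, 0.14 for Co2, 0.28 for Co3, 0.11 for Cyb, 0.22 for Atp6 and 0.16 for Atp8 in failing hearts, where 0.311% of all genes were called. They were 0.20 for Co1, 0.13 for Co2, 0.22 for Co3, 0.09 for Cyb, 0.23 for Atp6 and -0.10 for Atp8 in healthy hearts, where 9.14% were called. By edgeR 0 of 6 passed in both states; 0 in failing and 3 in healthy hearts had an unadjusted p under 0.05, DESeq2 called 0 and 2, the 2 beside 12.2% of genes, and limma 0 in each. In healthy hearts the codes paired the libraries, and with the code as a replicate block Co1 at 0.21 (adjusted p = 0.026), Co3 at 0.22 (0.015) and Atp6 at 0.23 (0.014) passed, with 19.2% of genes called. Without healthy left atrium H1002, which had the highest Atp8 of its group, Atp8 passed at -0.29 (adjusted p = 0.020), with 1066 of 14160 genes called.

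The superior over the inferior node gave log2 differences of 0.71 for Co1, 0.64 for Co2, 0.77 for Co3, 0.61 for Cyb, 0.72 for Atp6 and 0.96 for Atp8 in failing hearts. In healthy hearts they were 0.75 for Co1, 0.75 for Co2, 0.81 for Co3, 0.66 for Cyb, 0.82 for Atp6 and 0.38 for Atp8. None of the 6 passed by edgeR, and neither did most other genes, with 0.0% called in failing and 0.00698% in healthy hearts. At an unadjusted p under 0.05 there were 1 member in failing and 5 in healthy hearts, among 1130 and 1463 genes, DESeq2 called 0 members and 41 and 126 genes, and limma 0 members and 4 and 2 genes.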

How the data were processed

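The submitters' processing notes name Trimmomatic 0.39, a read trimmer, and kallisto 0.48.0, which assigns reads to transcripts; no source used here names a build or annotation. The authors deposited estimated counts and TPM for 24057 genes. The deposited estimated counts follow TPM times a gene term and a library term, so they were scaled for length before deposit, and counting intervals were not computed. Counts were rounded to whole numbers and tested with edgeR 4.0.16 in R 4.3.3 (TMM, filterByExpr with a minimum of 10 counts and a total of 15, robust quasi-likelihood F test, Benjamini-Hochberg over all genes tested, threshold 0.05), with only the compared groups in a fit; the self-test on simulated counts was run first. DESeq2 1.42.0, limma 3.58.1 on log2(TPM + 1), other scalings, no filter, 1 fit of all libraries, the replicate block and leaving out each library were alternatives. Fold changes on the log2(TPM + 1) scale understate those of low genes.

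The members and lists were chosen with earlier results of these data known. All 6 members are named in each comparison. The 2 other genes of abundance 5 or more (mean log2 CPM) whose log2 values kept the smallest SD of difference from the members' mean are named once, for this likeness over the 38 libraries. Lists of nuclear partners and cell type markers were not used here, because 0 of the files' identifiers matched the reference tables; for the same reason no sequence is printed.

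Whether title codes pair libraries was checked by correlating deviations from group means. Every same-code pair correlated above 0.1 in failing hearts for superior node against right atrium (0.41 to 0.45), inferior node against right atrium (0.30 to 0.38) and superior against inferior node (0.36 to 0.63), and in healthy hearts for superior node (0.20 to 0.23), inferior node (0.17 to 0.30) and left atrium (0.31 to 0.36) against right atrium.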

Additional observations from a re-analysis of the deposited data

Results flagged for a closer look

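In 72 sets of 4 values, each 1 measure in the libraries of 1 group, 1 library far from the rest was looked for. Of these sets 3 stood out, and chance gives about 1 in 20. Several measures come from the same libraries, so the sets are not independent. Healthy inferior node H0921 had 2.373% of its counts in Atp6, the highest of its group, and its 6 genes together made up 20.2%. Failing left atrium F0506 had 0.01683% of its counts in Atp8, below the other 3 failing left atria. Healthy left atrium H1002 had 0.05858% of its counts in Atp8, above the other 3 healthy left atria. Without these left atria, Atp8 in failing over healthy left atria changed by -0.77 without F0506 and by -0.74 without H1002, each past the threshold.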

How the results depend on the processing

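Counts of the 6 genes called changed as follows, each given with the share of all genes that the same setting called. Between failing and healthy hearts, DESeq2 called 1 in the superior node (22.9% of genes) and 2 in the right (50.3%) and left atrium (51.9%), library totals alone called 2 in the left atrium (6635 of 14217 genes), and 1 fit of all 38 libraries called 1 in the superior node (17.1%) and 1 in the left ventricle (19.1%). For the left ventricle over the left atrium in failing hearts, DESeq2 (19.3%) and the fit of all libraries (33.6%) called 6, and leaving the 6 genes out of the scaling called 2 (1555 of 13830 genes). For the superior node over the right atrium, DESeq2 called 1 in failing hearts (15.2%); in healthy hearts limma called 0 (40.2%), the fit of all libraries 3 (15.8%) and the replicate block 3 (24.6%). In healthy hearts DESeq2 called 1 for the inferior node (22.8%) and 2 for the left atrium (12.2%) over the right atrium, and the replicate block 3 for the left atrium (19.2%). The replicate block changed no other count.

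On the log2(TPM + 1) scale values reversed in failing over healthy right atria for Co1 (-0.1205), Co2 (-0.1001) and Atp6 (-0.01239), in left atria for Co1 (-0.1203), Co2 (-0.03671) and Cyb (-0.2211), in left ventricles for Co1 (-0.02362) and Cyb (-0.03961), and in failing inferior node over right atrium for Co3 (0.06869), Atp6 (0.04069) and Atp8 (0.08688). The median of all genes on that scale was -0.19, -0.14, -0.26 and 0.28 in these 4 comparisons, and relative to it 10 of these 11 values had the sign of the edgeR fit, Cyb in the left atrium being the exception. The failing minus healthy share as TPM was -2.218 percentage points in the right and -1.131 in the left atrium. The cause was not tested.

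Leaving out 1 library gave 1 to 4 calls in the inferior node, with 4297 of 14576 to 5850 of 14547 genes called. Right and left atria each had 1 to 2 calls. Genes called there were 5271 of 14185 to 6946 of 14168 and 5697 of 14404 to 7017 of 14392. Between regions, failing hearts had 0 to 1 (inferior node over right atrium) and 0 to 6 (left ventricle over left atrium). Healthy hearts had 2 to 6 (superior node over right atrium) and 0 to 1 (left atrium over right atrium). For several of these region fits the number of genes called is given above. Values near 0 changed sign: Co3 in the inferior node (-0.5761 to 0.007774) and superior node (-0.3777 to 0.03796), Cyb in the right (-0.05807 to 0.07388) and left atrium (-0.1472 to 0.1362), Co3 in failing inferior node over right atrium (-0.5896 to 0.01737), Cyb in failing left over right atria (-0.06042 to 0.2184), Cyb (-0.008422 to 0.235) and Atp8 (-0.06914 to 0.426) in healthy inferior node over right atrium, and the Atp8 interaction of superior node and right atrium (-0.1296 to 0.3799). Of 1944 values under alternatives, 1822 kept their direction and side of the threshold. Most members did not pass in most comparisons, so this count says little about the calls themselves. In failing over healthy hearts the log2 change of Atp8 was below 0 under each alternative run, in all 5 regions. Fragment lengths and counts before length scaling, which limit the precision of Atp8, were not given.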
